A study of Mus musculus with 23 samples.

Results

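The genes described here are 9 of the 32285 in the matrices and mark the eosinophil, basophil and mast cell branches of blood formation. Prg2, Prg3, Epx and Il5ra form the eosinophil group, and Cpa3, Ms4a2, Fcer1a, Mcpt8 and Prss34 form the basophil and mast cell group. They were selected on their counts in bone marrow (BM) of Stat5b mutant mice, so every bone marrow level, fold and share of barcodes given for them is a description and carries no p-value. Single-cell RNA libraries were made from mice labelled C57BL/6, the mutants having been generated in C57BL/6N, at 2 months of age with unaltered Stat5b (WT) or with a tyrosine of STAT5B, a signalling transcription factor, replaced by phenylalanine (Y665F) or histidine (Y665H), the number in each name being its position in the protein. Y665F was introduced with CRISPR/Cas9 and a donor oligonucleotide, and Y665H with a base editor. Bone marrow gave 6 libraries, 2 of each genotype. The labels give no zygosity for the bone marrow and spleen mice, although the study's account of marrow speaks of homozygous Y665F animals, and do not say whether lymph node replicates came from separate mice, so the spread and p-values there may be technical only. Spleen gave 3 libraries, 1 of each genotype, from CD45+ cells combined over several mice, and lymph node (LN) gave 7, of which 2 were WT, 3 heterozygous and 2 homozygous for Y665F.

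Eosinophils fill their granules with cationic proteins, among them major basic protein (Prg2), its relative encoded by Prg3, and eosinophil peroxidase (Epx). Il5ra encodes the alpha chain of the receptor for IL-5, the cytokine that drives eosinophil production, and this chain pairs with a beta chain that IL-3 and GM-CSF receptors also use and that signals through JAK2 and STAT5. Basophils and mast cells share the high-affinity IgE receptor, whose alpha chain is Fcer1a and beta chain Ms4a2, and the granule enzyme carboxypeptidase A3 (Cpa3). Mcpt8 and Prss34 encode serine proteases typical of mouse basophils.

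The members lie on 8 chromosomes of GRCm38.p6, and Prg2 and Prg3 are neighbours on chromosome 2, 4563 bases apart (chr2:84980461-84983632 and chr2:84988196-84996559). Promoter windows of 300 bases, from 250 before to 50 after the start used for each gene on GRCm38.p6, were at hand for 8 of the 9 members, all but Prg2. That start is not always the outer end of the gene's RefSeq span. The Mcpt8 window lies wholly inside the span of Mcpt8 (chr14:56082163-56085499), and the Prg3 window is also offset from the outer end of its gene. The windows of Prg3 and Epx, whose UMIs (unique molecular identifiers, the counted RNA molecules) met in 17 bone marrow barcodes, and of the basophil proteases Mcpt8 and Prss34, which met in 79, are shown 5′ to 3′ on the gene's own strand. Capitals mark GATAA, the core of the motif bound by GATA factors, or its reverse complement TTATC.
Prg3, chr2:84987965-84988264, plus strand: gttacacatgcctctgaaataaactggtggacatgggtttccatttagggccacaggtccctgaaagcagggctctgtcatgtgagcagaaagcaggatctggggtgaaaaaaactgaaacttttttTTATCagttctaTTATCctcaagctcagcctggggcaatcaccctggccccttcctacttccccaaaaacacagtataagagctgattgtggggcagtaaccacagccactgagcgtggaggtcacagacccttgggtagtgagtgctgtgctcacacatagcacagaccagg
Epx, chr11:87875487-87875786, minus strand: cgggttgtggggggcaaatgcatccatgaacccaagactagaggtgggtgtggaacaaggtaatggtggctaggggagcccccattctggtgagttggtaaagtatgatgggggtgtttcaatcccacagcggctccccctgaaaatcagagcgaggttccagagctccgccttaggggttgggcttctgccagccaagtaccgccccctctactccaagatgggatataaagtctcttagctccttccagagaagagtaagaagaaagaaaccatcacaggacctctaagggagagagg
Mcpt8, chr14:56085148-56085447, minus strand: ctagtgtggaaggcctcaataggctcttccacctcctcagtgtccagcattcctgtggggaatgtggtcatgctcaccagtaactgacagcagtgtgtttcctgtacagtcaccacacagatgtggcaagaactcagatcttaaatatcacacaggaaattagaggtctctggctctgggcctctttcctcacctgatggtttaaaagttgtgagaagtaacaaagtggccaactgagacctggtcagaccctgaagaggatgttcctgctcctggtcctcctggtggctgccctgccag
Prss34, chr17:25298144-25298443, plus strand: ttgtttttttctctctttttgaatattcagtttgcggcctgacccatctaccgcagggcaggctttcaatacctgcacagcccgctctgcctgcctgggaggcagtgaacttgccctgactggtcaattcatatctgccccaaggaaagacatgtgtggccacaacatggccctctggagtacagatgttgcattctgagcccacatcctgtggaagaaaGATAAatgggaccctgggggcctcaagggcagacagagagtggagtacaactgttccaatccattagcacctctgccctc
On either strand GATAA was found in 6 of the 8 members' windows (Prg3, Il5ra, Cpa3, Ms4a2, Fcer1a and Prss34) and in 25.4% of all 32851 windows of the same length. The STAT-type motif TTCNNNGAA, which reads the same on both strands and overlaps no GATAA match here, was found in 0 of the 8 and in 8.30% of all windows. These counts describe letters in a short window.

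The 6 bone marrow libraries held 4237 to 18711 kept barcodes (200 or more genes detected, no more than 10% of UMIs mitochondrial) and 16131568 to 55554584 UMIs, with medians of 1626 to 2872 UMIs a barcode. In Y665F replicate 2 the smallest kept barcode had 1179 UMIs, against 500 in the other 5 libraries. Levels are given as CPM (the UMIs of a gene scaled to a common library total), which do not compare 1 gene with another, and intervals are exact Poisson or binomial 95% intervals that cover counting error only. CPM, their folds and statements of overlap take no TMM factor (a correction for library composition), whereas fitted log2 fold changes do. These factors were 1.14 and 0.916 in WT, 0.871 and 0.836 in Y665H, and 1.13 and 1.17 in Y665F. Replicate 1 of each bone marrow genotype had 237 to 884 CPM of Xist and at most 0.0900 CPM of Y-linked genes, and replicate 2 at most 0.587 and 64.1 to 109 CPM, although the study describes males. The replicates of a genotype therefore came from different mice, and number and sex cannot be told apart. Member folds against WT are also given within each replicate number where the counts allow one. Pairs of bone marrow libraries shared 80 to 476 barcode sequences, at most 2.89% of a library. A base substitution cannot be read from gene counts, and Stat5b itself stood at 25.8 and 19.3 CPM in WT, 16.6 and 16.8 in Y665H, and 39.5 and 49.3 in Y665F.

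The eosinophil granule genes were near the detection floor in WT marrow and far above it in Y665F. Prg2 had 3 and 27 UMIs in the 2 WT libraries, 114 and 63 in Y665H, and 6995 and 2206 in Y665F, or 0.186 and 0.978, 2.78 and 2.43, and 126 and 44.6 CPM. The order Y665F, Y665H, WT held with no overlap between genotypes, although the replicates within Y665F were themselves almost 3-fold apart. Without its richest barcode Y665H replicate 2 had 1.04 CPM, beside 0.978 in WT replicate 2. In the fit over all genes the log2 fold change of Prg2 was 6.80 ± 0.56 (SE, n = 2 libraries a genotype) for Y665F against WT, 2.19 ± 0.58 for Y665H against WT, and 4.61 ± 0.47 for Y665F against Y665H. The first of these was 5.80 without Y665F replicate 1 and 8.81 without WT replicate 2, and the second was 1.5 to 4.21 with 1 library left out. Within replicate number 1 the ratio of Y665F to WT was 677 (counting interval 232 to 3284, on 3 UMIs in WT), and within number 2 the fold was 45.6. For Y665H to WT these were 14.9 (4.98 to 73.5) and 2.49.

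Prg3 had 3 and 3 UMIs in WT, 6 and 13 in Y665H, and 284 and 115 in Y665F. Both Y665F libraries exceeded all others, with a log2 fold change of 4.53 ± 0.65 against WT (3.77 without Y665F replicate 1), and count ratios of 27.5 (9.31 to 134) and 21.4 (7.15 to 105) within replicate numbers 1 and 2. The ranges of Y665H and WT overlapped in CPM, with a log2 difference of 1.32 ± 0.82 and count ratios of 0.786 (0.168 to 4.86) and 4.62 (1.27 to 25.3) within the replicate numbers. Epx, the peroxidase, had no UMI in either WT library, 0 and 2 in Y665H, and 114 and 24 in Y665F. Measured against a floor of 3 UMIs over both WT libraries, Epx was at least 19.2-fold higher in Y665F. By library it was at least 29.9-fold higher in replicate 1, at least 11.6-fold without the 1 barcode that held 70 of the 114 UMIs, and at least 7.08-fold in replicate 2.

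Il5ra, the receptor chain, was sparse in every bone marrow library. It had 2 and 4 UMIs in WT, 3 and 1 in Y665H, and 17 and 12 in Y665F, too few for the low-count filter. The count ratio of Y665F to WT was 2.01 with an interval of 0.822 to 5.93, which includes equality. Against Y665H the ratio was 4.62 with an interval of 1.62 to 18.1, and the 0.306 and 0.243 CPM of Y665F lay above the 0.0386 to 0.145 CPM of the other 4 libraries.

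**Figure D1:**
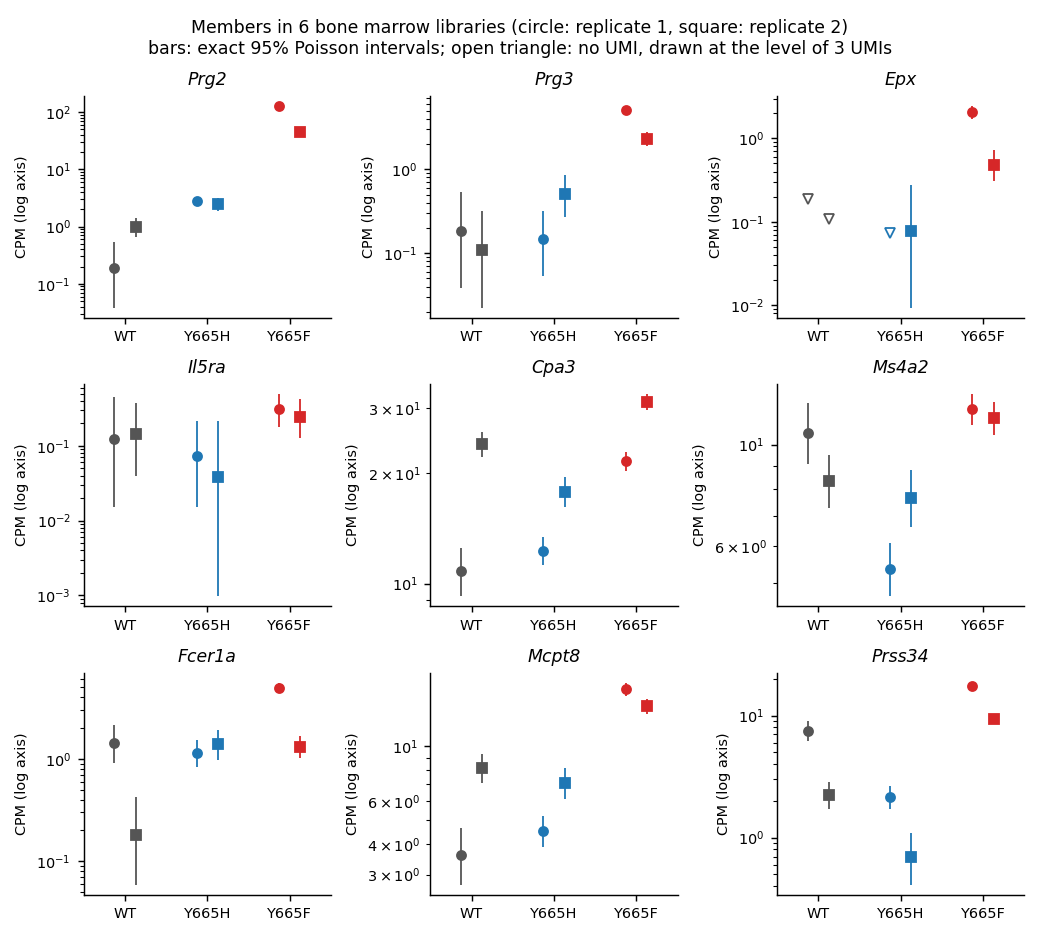
CPM on a log axis of each of the 9 genes in the 6 bone marrow libraries (circles replicate 1, squares replicate 2, error bars exact 95% Poisson intervals, open triangles libraries with no UMI drawn at the level of 3 UMIs). Prg2 sits at 126 and 44.6 CPM in Y665F against at most 2.78 in the other 4 libraries, whereas Cpa3 in WT replicate 2, at 23.9, lies above Y665F replicate 1 at 21.5.

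The basophil proteases were also higher in Y665F marrow, by less, from a WT level that was well above the floor. Mcpt8 stood at 3.60 and 8.15 CPM in WT, 4.51 and 7.06 in Y665H, and 17.1 and 14.5 in Y665F. The Y665F libraries did not overlap the others, with a log2 fold change of 1.17 ± 0.36 against WT and folds of 4.75 and 1.79 within replicate numbers 1 and 2. It was 0.62 without WT replicate 1 and 2.13 without WT replicate 2. WT and Y665H interleaved, with a log2 difference of 0.15 ± 0.37 and folds of 1.25 and 0.867 within the replicate numbers.

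Prss34 stood at 7.50 and 2.25 CPM in WT, 2.14 and 0.695 in Y665H, and 17.4 and 9.31 in Y665F. Y665F again lay above both other genotypes, by 1.39 ± 0.45 on the log2 scale against WT and by 2.77 ± 0.48 against Y665H. The former was 0.80 without Y665F replicate 1, 0.83 without WT replicate 2 and 2.24 without WT replicate 1. In CPM the 2 Y665H libraries lay below the 2 WT libraries, with folds of 0.286 and 0.309 within the replicate numbers, resting on 88 and 18 UMIs in Y665H. The fitted log2 difference was -1.37 ± 0.49, and -2.42 to -0.53 with 1 library left out. WT replicate 2, with 62 UMIs, was only just above Y665H replicate 1 in CPM. The TMM factors of these libraries, 0.916 and 0.871, bring them level, so the order holds in CPM only.

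Fcer1a and Cpa3 overlapped between Y665F and WT, and Ms4a2 differed by less than the proteases. Fcer1a had 23 and 5 UMIs in WT, 47 and 36 in Y665H, and 274 and 65 in Y665F, or 1.43 and 0.181, 1.14 and 1.39, and 4.93 and 1.32 CPM. Its Y665F range overlapped both others, and the log2 fold change of 2.01 ± 0.65 against WT rested on Y665F replicate 1 and WT replicate 2: without the former it was 0.68, and without the latter 1.14, while without WT replicate 1 it was 3.77. The folds within replicate numbers 1 and 2 were 3.46 and 7.26. Y665H differed from WT by 1.11 ± 0.69 on the log2 scale (0.24 to 2.86 with 1 library left out), but its folds within the replicate numbers, 0.803 and 7.67, ran in opposite directions. Ms4a2 stood at 10.6 and 8.33 CPM in WT, 5.36 and 7.64 in Y665H, and 11.9 and 11.4 in Y665F, with a log2 fold change of 0.14 ± 0.24 for Y665F against WT and folds of 1.13 and 1.37 within the replicate numbers. For Y665H against WT the log2 fold change of Ms4a2 was -0.28 ± 0.25 and the folds 0.505 and 0.917. The genotypes did not overlap in Ms4a2 CPM, but with the TMM factors Y665H replicate 2 was level with WT replicate 2. Y665F against Y665H gave a log2 fold change of 0.42 ± 0.24 and folds of 2.23 and 1.49. Cpa3 stood at 10.8 and 23.9 CPM in WT, 12.3 and 17.8 in Y665H, and 21.5 and 31.1 in Y665F, higher in replicate 2 than in replicate 1 of every genotype. Its log2 fold change in Y665F against WT was 0.35 ± 0.35, with -0.21 without WT replicate 1 and 1.27 without WT replicate 2, and its folds within the replicate numbers were 1.99 and 1.30. Those of Y665H against WT were 1.14 and 0.744. In CPM, Cpa3 in Y665F lay above Y665H with no overlap, with folds of 1.75 and 1.75. The fit, with its TMM factors, gave a smaller log2 fold change of 0.37 ± 0.35, and on that scale the ranges overlapped.

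Over all genes, a gene was called at an adjusted p under 0.05 and a log2 fold change over 1. Of the 13923 genes tested 8.1% were called higher and 8.66% lower in Y665F than in WT. The members were selected on these levels, so no calls are given for them. In Y665H against WT 0 genes were called by edgeR (0.0%) and 0 by DESeq2, with 723 and 730 genes at an unadjusted p under 0.05, and 18 were called with the replicate number, which marks sex here, as a block. In Y665F against Y665H 13.5% of genes were called higher and 12.1% lower. Both mutants were compared with the same 2 WT libraries.

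In Y665F marrow most Prg2 RNA was held by very few barcodes. It was spread thinly in WT replicate 2, with 27 UMIs in 26 barcodes, and in Y665H replicate 1, with 114 in 96, whereas in Y665H replicate 2 a single barcode held 36 of 63. A barcode was called a carrier of a group if it had at least 5 UMIs over at least 2 of the group's members. Carriers of the eosinophil group numbered 0 and 0 in WT, 0 and 2 in Y665H, and 19 and 12 in Y665F. The 0 of 4237 and 0 of 11321 barcodes in WT allow shares of up to 0.0708% and 0.0265%, and the Y665F shares were 0.104% (0.0624 to 0.162) and 0.0641% (0.0331 to 0.112). The WT replicate 1 limit overlaps the Y665F intervals, so at that library's size the absence of carriers does not separate it from Y665F. With every barcode thinned to 1000 UMIs the carriers were 0, 0, 0, 1, 12 and 10, after 0 to 4002 shallower barcodes a library were left out.

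In Y665F replicate 1 the 19 carriers, 0.104% of barcodes, held 95.6% of the Prg2 UMIs, 89.4% of Prg3 and 95.6% of Epx. In replicate 2 the 12 carriers held 63.3% of Prg2, 47.8% of Prg3 and 45.8% of Epx, so most Prg3 and Epx UMIs there lay outside them. Within carriers Prg2 ran from 5 to 2262 UMIs a barcode with a median of 111 in replicate 1, and from 20 to 217 with a median of 114.5 in replicate 2. Prg2 thus reached 61901 and 26069 CPM inside carriers, and 5.61 and 16.4 CPM outside them. Carriers of either group were picked by these same UMIs, so such shares and levels follow in part from the rule. In Y665H replicate 2 a single barcode with 36 Prg2 UMIs held 57.1% of that library's Prg2, and the 2 Epx UMIs were in it.

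**Figure D2:**
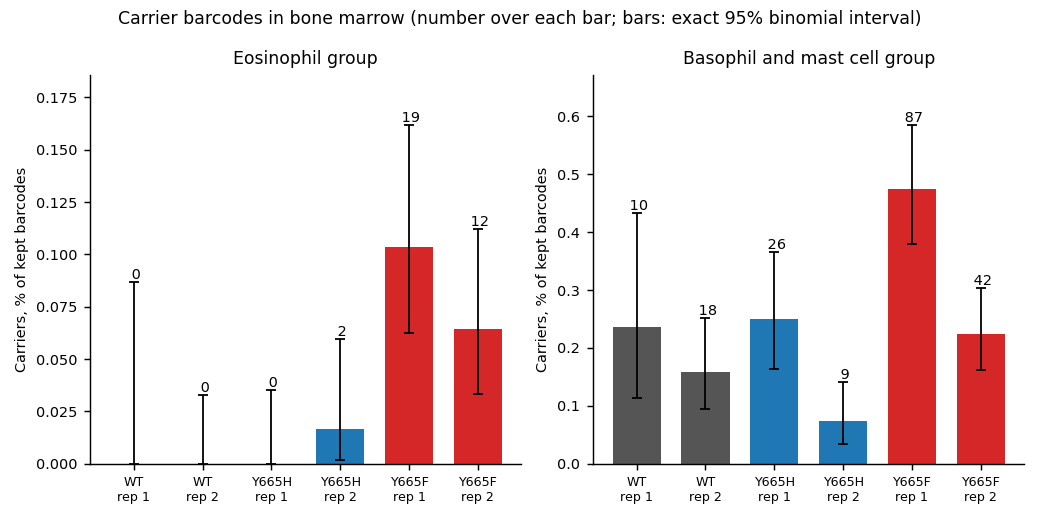
Share of kept barcodes that carried each gene group in each bone marrow library, in percent, with exact 95% binomial intervals as error bars and the number of carriers above each bar. Eosinophil-group carriers number 19 and 12 in Y665F and 2 in the other 4 libraries together, whereas basophil and mast cell group carriers are present in all 6, from 9 in Y665H replicate 2 to 87 in Y665F replicate 1.

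Basophil and mast cell group carriers were present in every genotype. They numbered 10 and 18 in WT, 26 and 9 in Y665H, and 87 and 42 in Y665F. As shares these were 0.236% and 0.159%, 0.249% and 0.0742%, and 0.474% and 0.224%, so that Y665F replicate 2 lay between the WT libraries and under Y665H replicate 1. After thinning to 1000 UMIs the shares were 0.164% and 0.0638%, 0.0709% and 0.0211%, and 0.174% and 0.118%, and again WT replicate 1 lay between the 2 Y665F libraries. The members differed in how far they were confined to carriers. For Prss34 carriers held 81.1% to 96.8% of the gene's UMIs in the 6 libraries, whereas for Cpa3 the share was 2.39% to 27.2%, for Ms4a2 6.06% to 31.2% and for Mcpt8 18.0% to 53.5%.

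Genes of a group were detected together in a larger share of the barcodes that had many UMIs of them. In Y665F marrow 947 barcodes had a single Prg2 UMI, and of these 4 also had Prg3 and 1 had Epx. Of the 34 Y665F barcodes with at least 5 Prg2 UMIs, 31 had Prg3, 17 had Epx and 3 had Il5ra. For Mcpt8, of 1131 bone marrow barcodes with 1 Mcpt8 UMI 15 had Prss34 and 130 had Cpa3, and of 65 with at least 5 Mcpt8 UMIs 46 had Prss34 and 43 had Cpa3. Of the 58 barcodes with at least 5 Prss34 UMIs, 54 had Mcpt8, 49 had Cpa3, 49 had Ms4a2, 36 had Fcer1a and 4 had Prg2. Of 2719 barcodes with 1 Cpa3 UMI 200 had Ms4a2, and of the 63 with at least 5 Cpa3 UMIs 27 had Ms4a2 and 18 had Prss34. Barcodes with more UMIs in total are more likely to show any pair of genes.

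Over all 6 libraries Prg2 and Prg3 met in 38 barcodes, where independent detection in each library would give 3.65, and Prg3 and Epx in 17 where it would give 0.116. Within the other group Mcpt8 and Prss34 met in 79 barcodes against 6.17, and Cpa3 and Ms4a2 in 362 against 70.9. Across the groups Prg2 met Cpa3 in 85 barcodes against 67.5 and Mcpt8 in 46 against 27.4. All 31 eosinophil-group carriers of Y665F had Prg2 and Prg3 UMIs, 17 had Epx, 17 had Cpa3 and 7 had Mcpt8, and of the 192 basophil and mast cell group carriers of all genotypes 8 had Prg2 and 169 had Cpa3. The carrier rule asks for at least 2 members of a group, and Epx and Il5ra were seen in only 36 and 37 bone marrow barcodes. That all 31 had Prg2 and Prg3 thus follows largely from the rule. Carriers of both groups numbered 3 in Y665F replicate 1, 2 in Y665F replicate 2 and 0 elsewhere. At most 8 of the 9 members were seen in 1 barcode, a Y665F replicate 1 barcode with 11566 UMIs, more than 98.4% of its library. It held 2262 Prg2, 73 Prg3, 70 Epx, 86 Prss34 and 40 Mcpt8 UMIs beside 32 UMIs of 6 B-lineage markers and 86 of granulocyte and monocyte progenitor (GMP) markers, and the members made up 22.1% of its UMIs. Whether it held more than 1 cell was not tested, and without it Prg2 in that library was 85.2 CPM.

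**Figure D3:**
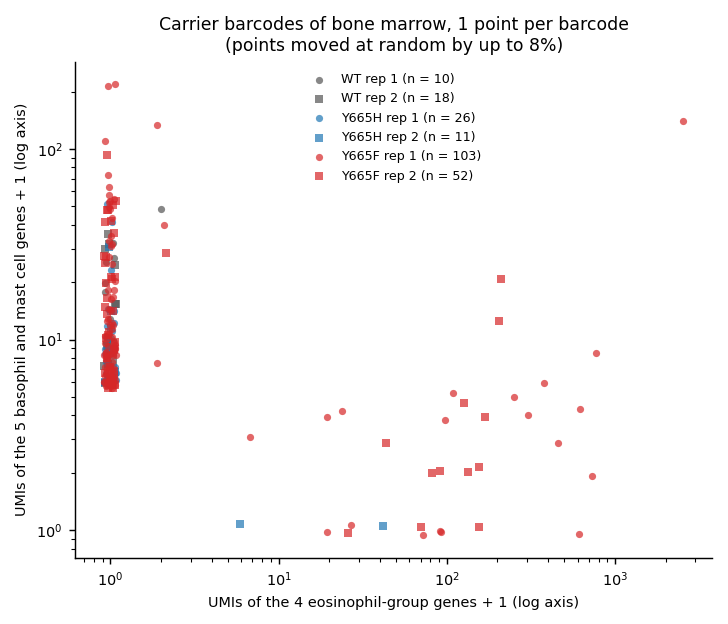
Each of the 220 bone marrow carrier barcodes by its UMIs of the 4 eosinophil-group genes (x) and of the 5 basophil and mast cell group genes (y), each plus 1, on log axes, with points moved by up to 8% so that they do not hide each other. Most basophil and mast cell group carriers stand at the left edge, with no eosinophil-group UMI, and the Y665F replicate 1 barcode at the upper right is the one with 2262 Prg2 UMIs.

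By marker lists that contain no member, most carriers were unplaced or placed with GMP markers. A barcode was placed by the list whose summed CPM stood out most over its library. The marker level needed therefore differed between libraries, and shares of placed barcodes do not compare libraries on 1 scale. Of the 19 eosinophil-group carriers of Y665F replicate 1, 9 were placed with GMP markers (Mpo, Elane, Prtn3, Ctsg, Ms4a3) and 6 with none, while GMP placement took 6.67% of all barcodes of that library. Of the 12 in replicate 2, 2 were placed as GMP and 8 with no list, while GMP placement took 5.62% of all barcodes of that library. The GMP list made up 1.56% of carrier UMIs in replicate 1 against 0.288% in other barcodes, but 0.278% against 0.242% in replicate 2. The median carrier had 60 GMP-list UMIs in replicate 1 and 9 in replicate 2. Basophil and mast cell group carriers were placed with no list in 61 of 87 and 28 of 42 cases in Y665F, and with GMP in 17 and 6. In WT 8 of 28 were placed as GMP.

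The genes most enriched in eosinophil-group carriers, by the lower ratio of carrier to other barcodes in the 2 Y665F libraries, with 0.5 UMI added on both sides, began with Cebpe (58.1 to 69.5 times), which encodes a transcription factor of late granulocyte development. Cebpe stood at 380 and 205 CPM in carriers, in 14 of 19 and 7 of 12 of them, and at 5.52 and 3.69 CPM in other barcodes. It was followed by neutrophil granule and related genes, Lcn2 (10.1 to 13.6 times), Ltf (8.73 to 11.6), S100a9 (5.71 to 12.8), Pglyrp1 (5.61 to 6.93), Ngp (5.32 to 24.6) and S100a8 (5.06 to 16.2), and by Anxa1 (5.53 to 7.55). The 9 neutrophil markers made up 1.93% and 2.25% of all carrier UMIs and 0.347% and 0.147% of the UMIs of other barcodes, yet the median carrier had only 1 and 0.5 UMIs of them, so a few carriers supplied nearly all. Barcodes placed as neutrophils were themselves 0.157% to 0.330% of WT and Y665H libraries and 1.31% and 2.07% of Y665F libraries, each by its own library's marker level. The part this plays in the carriers' values was not tested.

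In basophil and mast cell group carriers the leading genes over the 3 libraries with at least 20 carriers were Cyp11a1 (40.7 to 118 times), which starts steroid synthesis from cholesterol, the RNase gene Rnase12 (26.7 to 118) and Alox5 (16.6 to 89.5), which starts leukotriene synthesis. Csf1 (14.8 to 45.9), Gm11697 (13.1 to 50.1), Csrp3 (7.77 to 19.5), Hdc (7.59 to 16.1), the histamine-forming enzyme, and Edem3 (6.74 to 9.76) came next. Gata2, a transcription factor of basophil and mast cell development, was found in 64 of 87 and 33 of 42 Y665F carriers, at 360 and 288 CPM against 89.6 and 122 in other barcodes.

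Of the further lineage genes 5 of 15 for eosinophils and 9 of 27 for basophils and mast cells were too sparse to test, with 0 to 64 UMIs in all of bone marrow. The mast cell genes Tpsb2, Tpsab1, Mcpt1, Mrgprb1 and Mrgprb2 had 0 UMIs in all 6 bone marrow libraries, Mcpt4 had 1 and Mcpt2 had 4. Ccr3, the eotaxin receptor of mature eosinophils, had 15 UMIs in all, and none in an eosinophil-group carrier of Y665F. The eosinophil RNase genes Ear1, Ear2 and Ear6, near-identical copies whose split of reads is uncertain, had 16, 64 and 27 UMIs. Other genes of mature cells were detected: the mast cell chymase gene Cma1 had 16 UMIs in 5 of the 87 carriers of Y665F replicate 1 and 11 in other barcodes, and Siglecf, an eosinophil surface lectin, had 60 to 324 UMIs a library, of which 4 lay in 3 of the 19 eosinophil-group carriers of Y665F replicate 1 and 0 in the 12 of replicate 2.

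The level in B-lineage barcodes, which should lack the granule and IgE receptor genes, is given as a reference for the members other than Il5ra, which B-lineage cells also express. B-lineage barcodes, with at least 3 UMIs of at least 2 of 10 B-cell markers and B lineage as their leading list, numbered 201 and 688 in WT, 283 and 556 in Y665H, and 1234 and 762 in Y665F. Their median depth was 1074 to 2222 UMIs, against 1626 to 2872 over all barcodes. In Y665F, carriers left out, B-lineage barcodes had 9.36 and 13.7 CPM of Prg2, against 0 and 0.793 in WT and 3.0 and 1.09 in Y665H. The 0 of WT replicate 1 rests on 201 B-lineage barcodes with a median of 1074 UMIs, too few to set it apart from Y665F replicate 1. The 0.793 CPM of WT replicate 2 is near the floor. All Y665F barcodes outside carriers had 5.61 and 16.4 CPM, lower than B-lineage barcodes in replicate 1 and higher in replicate 2.

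The share of B-lineage barcodes with a Prg2 UMI was 1.78% and 3.41% in Y665F, and the share of all barcodes was 1.71% and 3.81%. In WT the pairs were 0 (which allows up to 1.49%) and 0.145% in B-lineage barcodes, and 0.0708% and 0.230% in all. In both Y665F libraries the share over all barcodes lay inside the counting interval of the B-lineage share, which was 2.24% to 4.96% in replicate 2. These shares count any Prg2 UMI, carriers included. Median depth in Y665F was 1196.5 and 2222 UMIs in B-lineage barcodes, against 2382 and 2247 over all barcodes. Where the scattered single Prg2 UMIs came from was not tested. After thinning to 1000 UMIs the share of barcodes with Prg2 was 0 and 0.0851% in WT, 0.319% and 0.137% in Y665H, and 0.753% and 1.80% in Y665F. Before thinning the shares were 0.920% and 0.198% in Y665H and 1.71% and 3.81% in Y665F, so that WT replicate 2 then lay above Y665H replicate 2, and after thinning the intervals of those 2 libraries still overlapped (0.0367% to 0.168% and 0.0731% to 0.234%). Erythroid barcodes of Y665F had 1.85 and 10.6 CPM of Prg2. Before carriers were left out, the B-lineage value of Y665F replicate 1 was 1009 CPM, and the barcode with 2262 Prg2 UMIs accounted for all but 21 of its 2283 UMIs.

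The basophil proteases were low as well in B-lineage barcodes once carriers were left out. Prss34 in B-lineage barcodes without carriers was 1.78 and 2.94 CPM in Y665F, against 1.60 and 1.77 in all barcodes outside carriers, and 0 and 0.793 in WT. With 201 B-lineage barcodes in WT replicate 1, that 0 does not set it apart from Y665F. Mcpt8 was 8.02 and 6.38 CPM there, beside 8.0 and 9.96 outside carriers. GMP-placed barcodes had 67.1 and 27.6 CPM with their carriers included, so these values are not on the same basis as the B-lineage values. The share of GMP-placed barcodes with an Mcpt8 UMI was 10.1% and 6.37% in Y665F and 2.49% and 5.98% in WT, against 1.54% and 1.84% and 0 and 0.436% of B-lineage barcodes, carriers included in each. GMP-placed barcodes were deeper in all libraries but WT replicate 1, with medians of 978 to 3881 UMIs. In WT replicate 1, where they were shallower than B-lineage barcodes (978 against 1074), 2.49% of 482 GMP-placed barcodes had Mcpt8 and 0 of 201 B-lineage barcodes did, which allows up to 1.49%.

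Cpa3 was spread more widely. B-lineage barcodes, here with carriers included, had 18.1 and 17.4 CPM of it in WT, 4.49 and 18.5 in Y665H, and 17.2 and 34.8 in Y665F, beside whole-library levels of 10.8 to 31.1 CPM. The replicate 1 values of WT and Y665H rest on only 201 and 283 B-lineage barcodes. The share of B-lineage barcodes with a Cpa3 UMI was 7.87% in Y665F replicate 2 and 1.06% to 2.52% in the other 5 libraries, and over all barcodes it was 6.97% and 2.94% to 4.23%. In Y665F replicate 2 the share in B-lineage barcodes was thus above that over all barcodes, by a difference within counting error. In the other 5 libraries the share over all barcodes was higher than in the shallower B-lineage barcodes. Where single Cpa3 UMIs came from was not tested. GMP-placed barcodes had a Cpa3 UMI in 5.19% to 11.4% of cases over the 6 libraries. The share of B-lineage barcodes with an Ms4a2 UMI was 3.28% in Y665F replicate 2, against 2.62% over all its barcodes, a difference within counting error. It was 0.436% to 1.22% in the other 5 libraries, where 1.30% to 2.36% of all barcodes had one.

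**Figure D4:**
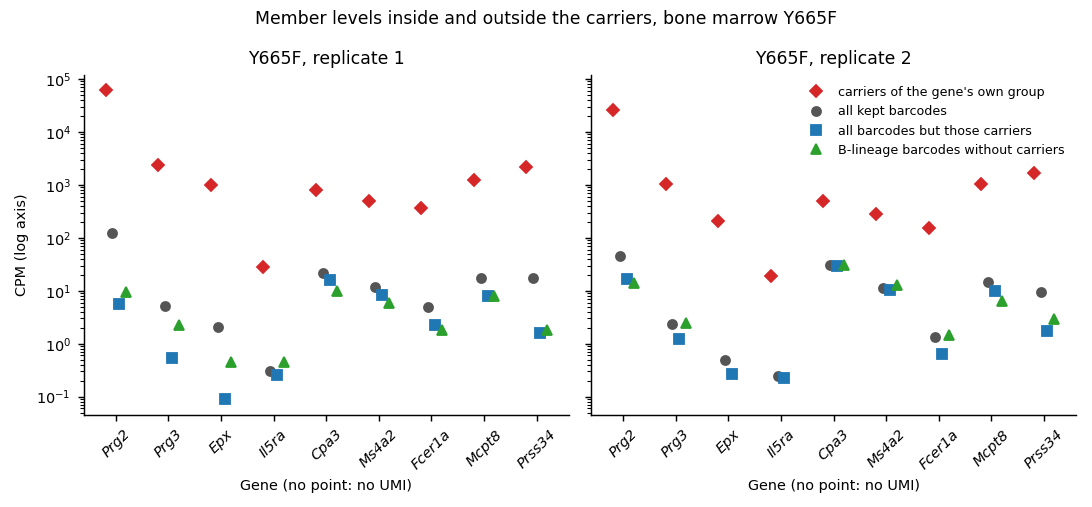
CPM on a log axis of each gene in the 2 Y665F bone marrow libraries, inside carriers of the gene's own group (red), in all kept barcodes (grey), outside those carriers (blue) and in B-lineage barcodes without carriers (green). For Prg2 the carriers reach 61901 and 26069 CPM while B-lineage barcodes stay at 9.36 and 13.7, and for Cpa3 in replicate 2 the whole library, at 31.1, hardly differs from B-lineage barcodes at 30.9.

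Genes of the same lineages and of the cytokine pathway that are not among the 9 were tested in the fit over all genes, with Benjamini-Hochberg adjustment of edgeR's quasi-likelihood test. These lists were chosen with earlier results of these data known, so their counts beside the shares of all genes are no independent check. Of 15 further eosinophil-lineage genes 10 could be tested, and in Y665F against WT 2 rose and 1 fell, where 8.1% of all genes were called higher and 8.66% lower, with a median log2 fold change of 0.44 against 0.04 over all genes. Cebpa, a factor needed to enter the granulocyte path, rose from 7.81 and 8.04 CPM in WT to 23.6 and 26.1 in Y665F (1.46 ± 0.23 on the log2 scale, edgeR adjusted p = 0.000568). Cebpe rose from 1.80 and 1.99 to 6.25 and 3.91 CPM (1.23 ± 0.33, edgeR adjusted p = 0.0111), a call that was lost without WT replicate 1 (1.02) or Y665F replicate 1 (0.78). The neutrophil markers moved with both genes, at 0.00403% and 0.0148% of UMIs outside basophil and mast cell group carriers in WT and 0.347% and 0.149% in Y665F, and their part was not tested.

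Gata1, which drives eosinophil as well as erythroid and megakaryocyte differentiation, fell from 105 and 73.4 CPM to 33.8 and 33.6 (log2 fold change -1.55 ± 0.23, edgeR adjusted p = 0.000399). The 9 erythroid markers moved with it, at 0.399% to 0.569% of UMIs outside carriers in WT and Y665H and 0.0720% and 0.0480% in Y665F, and their part in the change was not tested. Siglecf did not pass, with 4.84 and 3.40 CPM in WT and 5.83 and 6.43 in Y665F. In Y665F against Y665H Cebpa was again higher and Gata1 lower, Cebpe was not called (0.53 ± 0.31, edgeR adjusted p = 0.174), and in Y665H against WT 0 of the 10 were called.

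Of 27 further basophil and mast cell genes 18 could be tested, and in Y665F against WT 5 rose and 0 fell, against the same 8.1% and 8.66% of all genes, with a median log2 fold change of 0.69 against 0.04 over all genes. Il4, the type 2 cytokine that basophils make, rose from 1.12 and 2.72 CPM to 14.9 and 11.4 (2.50 ± 0.43, edgeR adjusted p = 0.000937), and the change was 1.94 without WT replicate 1 and 3.55 without WT replicate 2. Only 15 of 87 and 7 of 42 Y665F carriers had an Il4 UMI, and 812 and 556 of its 827 and 564 UMIs lay outside carriers. Gata2 rose from 32.0 and 33.4 CPM to 91.6 and 122 (1.52 ± 0.24, edgeR adjusted p = 0.000476). Alox5 rose by 1.65 ± 0.35, the monoamine transporter gene Slc18a2 by 1.36 ± 0.26 and the granule membrane gene Cd63 by 1.0 ± 0.30, with edgeR adjusted p of 0.00344, 0.00174 and 0.0191. The call of Slc18a2 was lost without WT replicate 2 (0.96). That of Cd63, at the fold threshold, was lost without WT replicate 1 (0.61) or Y665F replicate 1 (0.80), and fell just under 1 without Y665H replicate 2, with DESeq2 or with at least 500 genes a barcode.

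Kit, the stem cell factor receptor, missed the fold threshold at 0.92 ± 0.24 with 98.6 and 63.9 CPM in WT and 140 and 201 in Y665F. Against Y665H, 6 of the 18 genes were higher in Y665F: Il4 (2.55), Slc18a2 (2.05), Alox5 (1.74), Gata2 (1.56), Csf1 (1.54) and Itga2 (1.30, all log2). The call of Csf1 was lost without either Y665H library or without Y665F replicate 1 (0.99 to 1.68), and that of Itga2 without Y665H replicate 1 (1.31). In Y665H against WT 0 of the 18 were called, with a median log2 fold change of -0.04. Stem, megakaryocyte and erythroid progenitors also use Gata2 and Kit, and these levels were measured over all barcodes. Outside basophil and mast cell group carriers, megakaryocyte markers took 0.0117% and 0.0179% of UMIs in WT and 0.0627% and 0.0809% in Y665F. Neutrophil markers took 0.00403% and 0.0148% against 0.347% and 0.149%, and erythroid markers went the other way, 0.399% and 0.476% against 0.0723% and 0.0480%. The part of these markers was not tested. Barcodes placed with stem and multipotent progenitor markers made up 10.7% and 9.61% of Y665F libraries and 9.51%, 3.52%, 4.98% and 2.20% of WT and Y665H libraries. Each share is by its own library's marker level, and the part of these barcodes in the changes was not tested.

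Of 15 genes of IL-3, IL-5 and GM-CSF reception and STAT5 output, all could be tested, and 8 rose in Y665F against WT and 0 fell, where 8.1% of all genes rose and 8.66% fell, with a median log2 fold change of 1.0 against 0.04 over all genes. Csf2rb, the beta chain that Il5ra pairs with, rose from 8.12 and 5.83 CPM to 34.8 and 31.0 (2.09 ± 0.24, edgeR adjusted p = 0.000115), and its paralog Csf2rb2 by 1.49 ± 0.35, a call lost without WT replicate 2 (1.25) or Y665F replicate 1 (1.11). Reads shared by these near-identical copies may be split between them in an uncertain way. The alpha chains did not pass the fold threshold, with Il3ra at -0.71 ± 0.24 and Csf2ra at -0.76 ± 0.23.

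The other 6 that rose are targets or feedback regulators of cytokine signalling. Socs2 rose from 4.96 and 4.35 CPM in WT to 101 and 87.0 in Y665F (4.17 ± 0.23, edgeR adjusted p = 1.03e-07). Cish rose by 2.76 ± 0.25, Socs3 by 2.05 ± 0.35, the cytokine gene Osm by 1.82 ± 0.39, the kinase gene Pim1 by 1.58 ± 0.22 and the survival gene Bcl2l1 by 1.0 ± 0.25. Without WT replicate 2 Socs3 was 2.92 and Osm 2.59. Bcl2l1, at the fold threshold, lost its call without WT replicate 1 (0.86) or Y665F replicate 2 (0.83), with DESeq2 and with at least 500 genes a barcode. Against Y665H 8 genes were higher in Y665F, those just named and both Csf2rb copies, of which Socs3 lost its call without either Y665H library or Y665F replicate 1 (0.95 to 1.21), Osm without Y665H replicate 1 (1.20) and Bcl2l1 without Y665F replicate 2 (0.98), and in Y665H against WT 0 of 15 were called, with Socs2 at 2.31 and 2.20 CPM in Y665H. Markers of other cell types moved with this list: outside basophil and mast cell group carriers, megakaryocyte markers took 0.0117% and 0.0179% of UMIs in WT and 0.0627% and 0.0809% in Y665F, neutrophil markers 0.00403% and 0.0148% against 0.347% and 0.149%, and erythroid markers 0.399% and 0.476% against 0.0723% and 0.0480%. Their part in these changes was not tested.

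In spleen, whose single library a genotype allows no test, Mcpt8 and Prss34 stood far higher in Y665F than in WT, and the Prg2 levels of the genotypes overlapped. Mcpt8 had 23 UMIs in WT, 143 in Y665H and 6069 in Y665F, or 0.570, 3.04 and 166 CPM. Neutrophil and GMP markers moved with it: outside carriers the 9 neutrophil markers took 0.152%, 1.36% and 2.80% of UMIs, and the 5 GMP markers at most 0.00186% in WT and Y665H and 0.0356% in Y665F, and their part in the result was not tested. The ratio of Y665F to WT was 291 (counting interval 193 to 459) and that of Y665H to WT 5.33 (3.42 to 8.69). Prss34 had 0, 10 and 5494 UMIs, at least 2016-fold higher in Y665F against a floor of 3 UMIs in WT and at least 2.86-fold higher in Y665H.

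Cpa3 had 80, 240 and 839 UMIs in spleen, Ms4a2 39, 121 and 283, and Fcer1a 35, 49 and 421. The ratios of Y665F to WT were 11.5 (9.17 to 14.7) for Cpa3, 7.99 (5.70 to 11.5) for Ms4a2 and 13.2 (9.37 to 19.3) for Fcer1a. For Y665H against WT the intervals of Cpa3 (1.99 to 3.36) and Ms4a2 (1.84 to 3.92) lay above 1, and that of Fcer1a (0.763 to 1.91) included 1. Carriers of the basophil and mast cell group numbered 8 of 6866, 23 of 8018 and 26 of 5028 barcodes, and the 26 held 98.8% of the Y665F library's Mcpt8, 98.3% of its Prss34 and 98.8% of its Cpa3. Fewer still carried most of it, since the 10 richest barcodes for each gene held 89.5%, 94.3% and 88.7%, and single barcodes reached 837 Mcpt8 and 932 Prss34 UMIs. Of the 26 carriers 11 were placed as GMP and 13 with no list, and the 8 carriers of WT were placed with no list. The carriers of Y665F had a median of 38 Mcpt8 and 18.5 Prss34 UMIs, and the carriers of Y665H a median of 4 and 0. Cd200r3, a basophil surface receptor, was found in 23 of the 26, and in 5 of 87 and 0 of 42 carriers of Y665F marrow. The depths differed, with a median of 10117 UMIs in the spleen carriers of Y665F against 3591 and 3195 in those of marrow.

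Prg2 had 52, 42 and 38 UMIs in the spleens of WT, Y665H and Y665F, and its ratio of Y665F to WT was 0.805 (0.515 to 1.25). Prg3 had 9, 6 and 28 UMIs, of which 26 lay in 1 Y665F barcode of 47371 UMIs, and Epx had 2, 3 and 4. Il5ra went the other way, with 235, 330 and 75 UMIs and a ratio of 0.351 (0.267 to 0.458) for Y665F. Il5ra was spread over 193, 266 and 61 barcodes, and 88.9%, 88.8% and 93.3% of its UMIs lay in B-lineage barcodes. These made up 24.4%, 27.6% and 16.1% of the libraries and had 29.3, 31.3 and 19.8 CPM of Il5ra. Placement was relative to each library's own marker level, so these shares and levels do not compare like barcodes. B-lineage markers moved with Il5ra, at 0.175%, 0.202% and 0.0844% of UMIs outside basophil and mast cell group carriers. Their part in the Il5ra result was not tested.

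**Figure D5:**
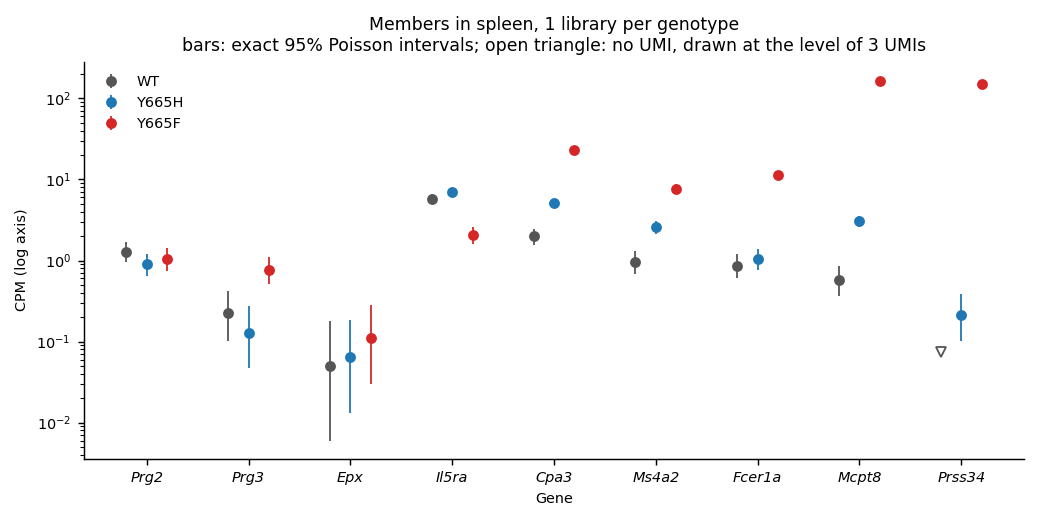
CPM on a log axis of the 9 genes in the 3 spleen libraries, with exact 95% Poisson intervals as error bars and an open triangle for no UMI, drawn at the level of 3 UMIs. Mcpt8 and Prss34 reach 166 and 150 CPM in Y665F, the Prg2 intervals of the 3 genotypes overlap, and Il5ra is lowest in Y665F at 2.05 CPM.

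In lymph node only Il5ra passed the low-count filter. It had 39 and 26 UMIs in WT, 35, 19 and 4 in heterozygous and 6 and 5 in homozygous Y665F libraries, or 5.82 and 2.14, 2.18, 2.42 and 1.69, and 2.37 and 0.877 CPM. The ranges overlapped, and Il5ra was not called in homozygous (log2 fold change -1.34 ± 0.64, edgeR adjusted p = 0.277) or heterozygous nodes (-0.69 ± 0.47, edgeR adjusted p = 0.550), where 2.31% and 0.767% of 11471 genes were called. The other 8 members were all but absent, with Prss34 and Epx at 0 UMIs in all 7 libraries. The 29 Prg2 UMIs of WT replicate 2 lay in 1 barcode. Nodes of the homozygotes had 2533716 and 5701548 UMIs in all, so that a count of 0 there allows up to 1.18 and 0.526 CPM.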

How the data were processed

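Single-cell RNA libraries of bone marrow, spleen and lymph node were analysed from the deposited matrices, which hold raw UMI counts per gene and barcode. Per the labels, the authors processed reads with Cell Ranger 5.0 and Seurat 4.0 on mm10. The labels name a 3′ kit and the study's methods a 5′ kit, and how marrow cells were chosen is not given in the sources used here.

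Barcodes with 200 or more genes detected and no more than 10% of UMIs mitochondrial were kept, from 4237 to 18711 in bone marrow. No doublet caller was run and cells were not clustered, and barcodes were placed by marker lists (highest log2 score of at least 1 over the library, with at least 3 UMIs of at least 2 markers, and 100 CPM added). Of bone marrow barcodes 7.43% to 12.4% lay within 0.25 of that threshold. UMIs were summed per library and tested with edgeR 4.0.16 (TMM, filterByExpr, quasi-likelihood test, Benjamini-Hochberg over all genes, called at adjusted p under 0.05 and log2 fold change over 1, all libraries of a tissue in 1 model), in R 4.3.3, with DESeq2 1.42.0 as alternative, after checks on simulated data. SE is the log2 fold change over the square root of F. With 1 spleen library a genotype no test was made.

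All 9 members are named. Of the other lists up to 8 called genes with the largest changes and up to 3 defining uncalled genes are named per comparison, and of carriers the 8 most enriched genes with at least 50 UMIs in carriers, from libraries with at least 20 carriers. No library had 20 eosinophil-group carriers, so a minimum of 10 was set after the data were seen. Il4 and Gata2 in carriers, the Ear genes and other uncounted list genes were named after their values were seen. Members and lists were chosen with earlier results of these data known.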

Additional observations from a re-analysis of the deposited data

How the results depend on the processing

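The 2 replicates a genotype limit every bone marrow comparison, and a count of 0 was bounded at 3 UMIs. Settings that leave 1 library in a group assume that it varies like the others. Called genes in Y665F against WT marrow numbered 2334, and 1511 to 2730 when 1 library was left out. For Y665H against WT 0 became 47 without the low-count filter and 2 to 29 when 1 library was left out, for Y665F against Y665H 3563 became 2201 to 3757, and for lymph node the 265 genes of homozygotes became 555 without the filter, 112 with at least 500 genes per barcode and 76 to 382 when 1 library was left out. The 88 genes of heterozygotes became 317 without the filter, 12 with at least 500 genes per barcode, 48 without the 5% of barcodes with the most UMIs and 28 to 241 when 1 library was left out. The causes were not tested. The members were selected on their bone marrow counts, so tallies of them by fold are descriptions. The share of all genes over the same fold is not given here, so these tallies show no excess over other genes. Members with a fitted log2 fold over 1, Epx included although its fit has no WT UMI behind it, numbered 6 in Y665F against WT and 3 to 7 over the libraries left out, with 3 without Y665F replicate 1. In Y665H against WT they numbered 4 (Prg2, Prg3, Epx and Fcer1a) and 1 to 4, with 1 without Y665H replicate 2. Log2 folds of members in Y665F against WT then ranged over 5.80 to 8.82 for Prg2, 3.78 to 4.98 for Prg3, 0.62 to 2.13 for Mcpt8 and 0.80 to 2.24 for Prss34, and without the 5% of barcodes with the most UMIs Prg2 was 6.02 and Prg3 3.71. Il5ra in heterozygous lymph node changed sign to 0.14 without WT replicate 1, and ranged from -1.34 to 0.14. The 32 called folds of other named genes were each refitted under 9 settings, and the call was kept in 265 refits and lost with the same direction in 23, spread over 10 of the folds. All 81 counts in the further gene lists stayed within 1.5 times.

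The mean share of basophil and mast cell group carriers, 0.198% in WT, 0.162% in Y665H and 0.349% in Y665F, became 0.597% in WT, 0.542% in Y665H and 1.13% in Y665F with at least 1 UMI of at least 2 members. With at least 10 UMIs it became 0.114% in WT, 0.0466% in Y665H and 0.160% in Y665F, after thinning to 1000 UMIs 0.114%, 0.0460% and 0.146%, and with both thinning and the looser rule, added after the data were seen, 0.314%, 0.270% and 0.447%. The summed level of the same group in B-lineage barcodes, 23.9 CPM in WT and 107 in Y665F as means of 2 libraries, became 19.7 CPM in WT and 121 in Y665F with at least 6 UMIs of at least 3 markers, and 20.4 and 40.8 CPM without carriers.

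Replicate numbers were shared across genotypes, and in marrow number and sex coincide, but the labels do not say that a number marks a shared batch or day. Deviations from the genotype means correlated at 0.314 between same-numbered WT and Y665H libraries, 0.0520 between WT and Y665F and 0.305 between Y665H and Y665F. With a replicate block, genes called in Y665H against WT numbered 18, and in lymph node 132 in homozygotes and 21 in heterozygotes, and Y665F against WT marrow gave 2500.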
